A study of Mus musculus with 2 samples.

Results

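The proteasome genes of G1E-ER4 cells were taken as the protein-coding genes whose symbol starts with Psm, one of the letters a to g and a digit, which gave 50 genes among 21461 nuclear protein-coding genes of the deposited gene tables. G1E-ER4 is an immortalized mouse erythroid line of strain C57BL/6J, male, that lacks its own Gata1 and carries a GATA1 protein fused to the estrogen receptor ligand-binding domain. The 2 libraries are biological replicates of total RNA from cells given 10 nM 17beta-estradiol for 24 hours, which restores GATA1 activity and starts erythroid differentiation. No untreated or other group was analysed here, so the values describe 1 condition in 1 line, and no contrast or test between conditions was made. Nothing in the labels says how separate the cultures were, and the spread given below is that between these 2 libraries.

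The proteasome is the protease that degrades proteins tagged with ubiquitin. Its 20S core is a barrel of alpha and beta rings, in which the outer alpha rings gate entry and 3 kinds of beta subunit cut the substrate. The 19S particle caps the core, with a ring of ATPases that unfolds substrates and non-ATPase subunits that recognise them and remove ubiquitin. Interferon-responsive immunoproteasome subunits can replace the catalytic beta subunits, and activators such as the PA28 complex can bind the core in place of the 19S particle. In erythroid cells the proteasome takes part in removing surplus globin chains and in the clearance of proteins during maturation.

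The 50 genes fell into 7 constitutive 20S alpha subunits with the testis-restricted Psma8, 7 constitutive 20S beta subunits with 3 immunoproteasome subunits and the thymus-restricted Psmb11, 6 19S ATPases, 11 19S non-ATPase subunits, 3 chaperones of 19S assembly, 5 activator genes, the regulator Psmf1 and 4 chaperones of 20S assembly. In GENCODE M21 (mm10) 3 pairs of members are near neighbours: Psmb5 (chr14:54614119-54618022, minus strand) and Psmb11 (chr14:54621433-54629556, plus strand), Psmb9 (chr17:34181987-34187764, minus strand) and Psmb8 (chr17:34197721-34201454, plus strand), and Psme1 (chr14:55578123-55581529, plus strand) and Psme2 (chr14:55587441-55591113, minus strand). The last match, Psmc3ip, is a recombination protein named for its binding to Psmc3 and is no proteasome subunit. It is left out of the sums.

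The promoter windows of 6 members are printed because their genes span the range of the levels below: the constitutive subunits with the highest and the lowest level (Psma1 and Psmb5), the 3 immunoproteasome subunits and the member with the highest level of all (Psme1). Each runs from 250 bases before to 50 bases after the RefSeq start site (GRCm38.p6), 5′ to 3′ on the strand of the gene, and capitals mark a match to any of the motifs listed after them.
Psma1 (chr7:114276067-114276366, minus strand): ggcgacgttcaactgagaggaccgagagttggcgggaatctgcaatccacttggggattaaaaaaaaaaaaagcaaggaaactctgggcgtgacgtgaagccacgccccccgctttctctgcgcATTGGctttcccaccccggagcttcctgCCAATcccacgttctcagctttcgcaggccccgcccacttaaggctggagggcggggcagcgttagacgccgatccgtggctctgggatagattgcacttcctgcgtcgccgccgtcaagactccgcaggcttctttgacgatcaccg
Psmb5 (chr14:54617946-54618245, minus strand): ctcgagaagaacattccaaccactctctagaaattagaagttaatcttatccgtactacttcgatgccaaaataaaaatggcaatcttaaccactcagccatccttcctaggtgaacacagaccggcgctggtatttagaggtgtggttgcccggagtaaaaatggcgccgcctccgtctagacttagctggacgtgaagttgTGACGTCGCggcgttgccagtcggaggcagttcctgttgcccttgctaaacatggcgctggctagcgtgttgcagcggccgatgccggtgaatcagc
Psmb8 (chr17:34197945-34198244, plus strand): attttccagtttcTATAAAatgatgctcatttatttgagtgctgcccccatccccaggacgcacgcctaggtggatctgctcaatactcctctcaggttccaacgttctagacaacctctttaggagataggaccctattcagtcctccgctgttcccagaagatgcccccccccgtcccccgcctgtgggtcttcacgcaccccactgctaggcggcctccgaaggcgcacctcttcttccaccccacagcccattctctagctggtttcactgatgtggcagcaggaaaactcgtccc
Psmb9 (chr17:34187281-34187580, minus strand): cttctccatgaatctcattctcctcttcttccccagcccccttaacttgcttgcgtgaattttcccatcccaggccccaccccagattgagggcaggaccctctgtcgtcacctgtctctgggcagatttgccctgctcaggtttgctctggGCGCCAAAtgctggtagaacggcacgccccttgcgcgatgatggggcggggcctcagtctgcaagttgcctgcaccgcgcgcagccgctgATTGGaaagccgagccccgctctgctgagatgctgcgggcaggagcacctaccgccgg
Psmb10 (chr8:105938343-105938642, minus strand): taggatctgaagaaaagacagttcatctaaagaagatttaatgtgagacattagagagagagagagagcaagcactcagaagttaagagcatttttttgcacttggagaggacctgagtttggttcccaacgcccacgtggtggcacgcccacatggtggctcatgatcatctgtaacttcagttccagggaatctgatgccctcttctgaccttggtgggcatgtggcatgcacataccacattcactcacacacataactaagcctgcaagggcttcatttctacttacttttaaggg
Psme1 (chr14:55578244-55578543, plus strand): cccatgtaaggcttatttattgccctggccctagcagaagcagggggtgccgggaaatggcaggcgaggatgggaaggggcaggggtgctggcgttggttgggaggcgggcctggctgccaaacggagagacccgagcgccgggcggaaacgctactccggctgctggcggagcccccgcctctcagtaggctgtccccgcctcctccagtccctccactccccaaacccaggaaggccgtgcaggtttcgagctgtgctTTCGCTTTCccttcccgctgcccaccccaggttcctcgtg
The motifs were searched on both strands, with N for any base: the antioxidant response element (TGACNNNGC or TGAGNNNGC), the CCAAT box (CCAAT), the GATA site (AGATAA or TGATAA), the core of the interferon-stimulated response element (GAAANNGAA), the TATA box (TATAAA) and the E2F site (TTTGGCGC or TTTCGCGC). The 6 motifs and the 6 windows were picked after the levels were known. A window was matched for 42 of the 50 genes, with 45 windows in all, so some genes count more than once. These windows include 1 of Psmc3ip, which held an antioxidant response element and a CCAAT box. More than 1 window of Psma6 held an antioxidant response element. The antioxidant response element, the element bound by the proteasome gene activator NRF1, was in 18 of 45 windows (40.0%), against 29.2% of 19931 windows of protein-coding genes. The interferon element core was in 7 windows (15.6%), against 8.18% of all windows, and the E2F site in 1 window (2.22%), against 1.06%. The other motifs were less frequent in the proteasome windows than in all windows. The CCAAT box was in 15 windows (33.3%), against 37.8%. The GATA site was in 5 (11.1%), against 15.2%, and the TATA box in 4 (8.89%), against 11.96%. These shares are descriptions with no test, and mean GC content was 58.3% in the proteasome windows and 56.8% in all windows. In the printed windows, Psma1 held 2 CCAAT matches, Psme1 a match to the interferon core and Psmb5 a match to the antioxidant response element. Psmb8 held a TATA match that begins at -237 from the start site. Psmb9 held a CCAAT match that begins at -8 and a match to the E2F site, and the window of Psmb10 held none of the 6. These are matches of letters, and whether they act as elements was not tested.

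Levels are given as TPM, an abundance scaled to the same total in each library that is corrected for transcript length. The libraries held 50277914 expected counts in replicate 1 and 47478888 in replicate 2. Nuclear protein-coding genes held 22.7% and 22.9% of TPM in replicates 1 and 2, so a level over those genes alone would be 4.41 and 4.37 times higher. All 8 erythroid markers were detected, Hbb-bs highest at 993.85 and 1008.37 TPM, while 0 of 7 granulocyte and macrophage markers and 0 of 9 lymphocyte and dendritic cell markers reached 1 TPM in both libraries. All 4 megakaryocyte markers were detected, with summed levels of 31.07 and 23.35 TPM in replicates 1 and 2. In bulk RNA fewer cells with a transcript and less of it per cell cannot be told apart.

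Of the 50 genes, 45 were detected, meaning a TPM of 1 or more in both libraries (90%), against 40.2% of all nuclear protein-coding genes. Without Psmc3ip, 38 of 44 detected members lay above the median mean level of detected nuclear protein-coding genes, 9.76 TPM. All 31 constitutive subunits of the 20S and 19S particles were detected, with a median of 34.55 TPM in replicate 1 and 38.15 TPM in replicate 2. The 49 members without Psmc3ip took up 0.702% ± 0.00224 of nuclear protein-coding TPM (SD, n = 2), which is 0.529% when transcripts not typed as protein-coding are left out of the members.

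**Figure D1:**
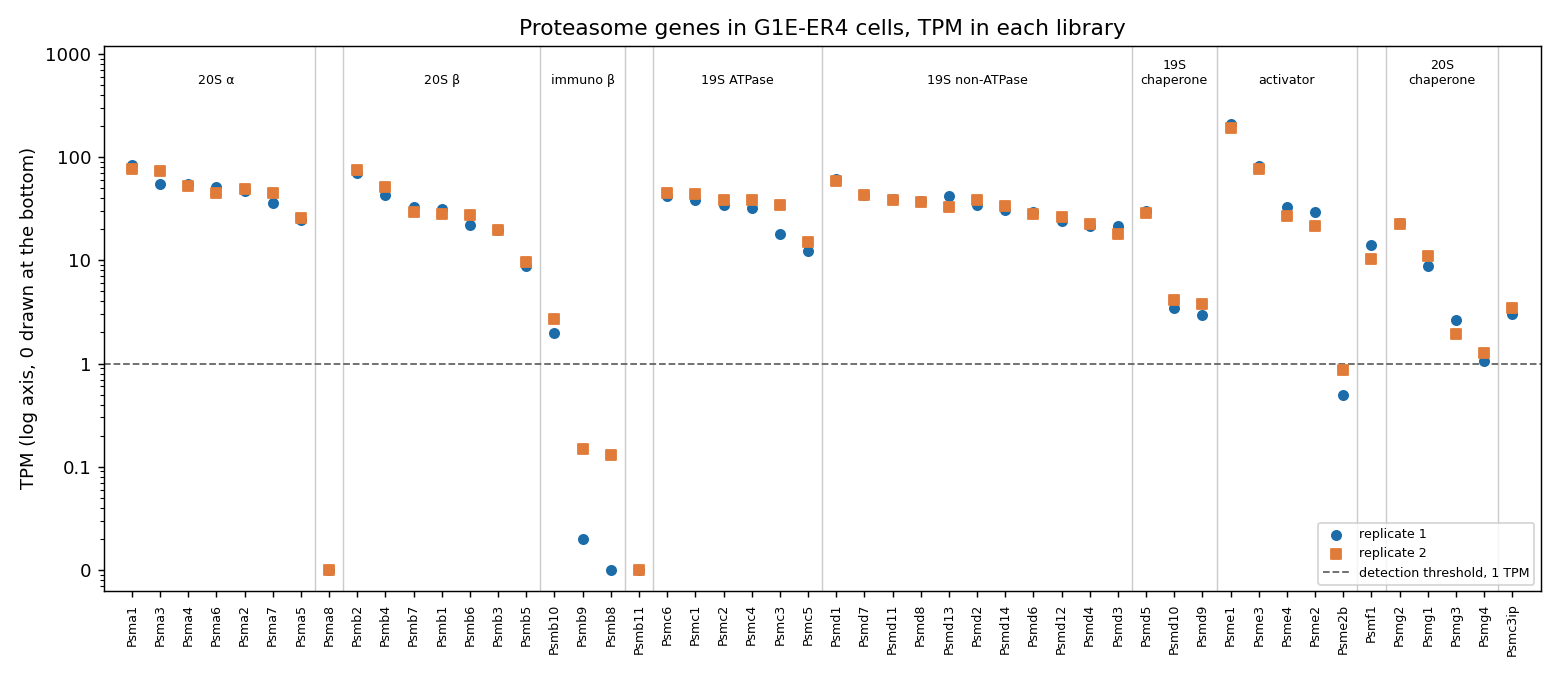
TPM of the 50 genes in replicate 1 (circles) and replicate 2 (squares) on a log axis, grouped by role and ordered by mean level, with values of 0 drawn at the bottom and the detection threshold of 1 TPM dashed. Psma8 and Psmb11 sit at 0 in both libraries, and Psme1 is the highest at 208.67 and 194.20 TPM.

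The alpha subunits had the highest median of the particle's subgroups, 51.42 and 48.95 TPM in replicates 1 and 2. Psma1, one of the subunits of the alpha ring, was highest at 83.58 and 76.50 TPM. Psma5 was lowest at 24.43 and 25.70 TPM, so the members of this ring spanned 3.19-fold. The ranges of Psma1 and Psma5 over the libraries did not overlap. Psma3 stood at 55.22 and 73.39 TPM, and reads of this gene are shared with a processed pseudogene, Gm13835, that is identical over 665 aligned bases and was given 323.62 and 302.28 expected counts. Psma8, the alpha subunit of the testis proteasome, had 0 counts in both libraries, which allows up to 0.0578 and 0.0610 TPM (3 counts, counting error only), and the 4 germ cell markers were at 0.

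The constitutive beta subunits varied more in level among themselves than the other subgroups of the particle. Psmb2 was highest at 70.94 and 75.40 TPM, and Psmb5, the subunit with chymotrypsin-like activity, was lowest at 8.79 and 9.55 TPM. Psmb5 was also the lowest of all 31 constitutive subunits, with 218 and 224 counts, and it stood at 0.372 ± 0.0314 of Psmb6 and 0.295 ± 0.0434 of Psmb7 (SD, n = 2). On protein-coding transcripts alone it stood at 0.586 ± 0.0365 of Psmb6 and was still the lowest of the beta subunits. Psmb6, the caspase-like subunit, had 22.28 and 27.28 TPM, and Psmb7, the trypsin-like subunit, had 33.28 and 29.34 TPM. The SD of log2 TPM across subunits was 0.953 for the beta subunits, 0.540 for the alpha subunits, 0.651 for the ATPases and 0.465 for the non-ATPase subunits. Over the 31 subunits it was 0.687 ± 0.0199 (n = 2), against 1.69 for all detected nuclear protein-coding genes.

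Most constitutive subunits had similar levels. Of the 31, 27 lay within 2-fold of their own median mean level, and the highest, Psma1, exceeded the lowest, Psmb5, by 8.73-fold. Ordered by mean level, 23 of the 30 pairs of neighbours had overlapping ranges over the libraries, so their order does not exceed the spread. The median of the beta subunits was 0.588 ± 0.0266 of that of the alpha subunits, in both libraries below 1. The median of the alpha subunits was 1.41 ± 0.191 times that of the ATPases, and 0.912 times in expected counts, where length is uncorrected. The non-ATPase subunits stood at 0.947 ± 0.108 of the ATPases, with 1.02 in replicate 1 and 0.870 in replicate 2, on either side of equality.

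The 19S ATPases had medians of 33.3 and 38.4 TPM. Psmc6 was highest at 41.82 and 45.00 TPM, and Psmc5 lowest at 12.23 and 14.95 TPM. Among the 11 non-ATPase subunits, Psmd1, a large scaffold subunit of the base, was highest at 61.30 and 59.47 TPM. On protein-coding transcripts alone it had 27.93 and 29.64 TPM, and Psmd7, a subunit of the lid, was highest there at 42.90 and 42.75 TPM. Psmd3, a subunit of the lid, was lowest at 21.63 and 18.11 TPM. Psmd14, the deubiquitinating enzyme of the lid, had 30.58 and 33.45 TPM, and Psmd4, a ubiquitin receptor, had 21.71 and 22.62 TPM.

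The immunoproteasome subunits were far below their constitutive counterparts. Psmb8 had 0 and 6 counts, or 0 and 0.13 TPM, and Psmb9 had 1 and 7 counts, or 0.02 and 0.15 TPM. The deposited posterior mean of Psmb9 was higher, 0.34 and 0.46 TPM, and its interval bounds in replicate 1, 0.097 and 0.636 TPM, lie above the TPM of 0.02. Psmb8 and Psmb9 were under the detection threshold in both libraries, also by posterior mean TPM. Psmb10 was detected at 1.98 and 2.73 TPM, 0.0763 ± 0.0237 of Psmb7. Together the 3 made up 3.01% and 4.35% of the TPM of the 6 catalytic beta genes. In expected counts the share was 76 of 1859 (4.09%, 95% exact Clopper-Pearson interval 3.23 to 5.09) in replicate 1 and 111 of 1789 (6.20%, 5.13 to 7.42) in replicate 2, so these intervals do not overlap, and they cover counting error only. The summed level of the 7 granulocyte and macrophage markers was also higher in replicate 2, at 1.23 TPM in replicate 1 and 4.35 TPM in replicate 2. Mpo had 1 and 70 counts in replicates 1 and 2, Elane 0 and 17, Cd68 22 and 53, Itgam 2 and 6 and S100a9 0 and 1. Lyz2 went the other way, with 10 and 6 counts, and Csf1r was at 0 in both. The part of these markers in the share was not tested. Psmb11, the beta subunit of the thymus proteasome, had 0 counts in both libraries, which allows up to 0.0220 and 0.0232 TPM, and 0 of 4 thymic cortex markers reached 1 TPM in both libraries, the highest being Ccl25 at 0.54 and 3.24 TPM.

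**Figure D2:**
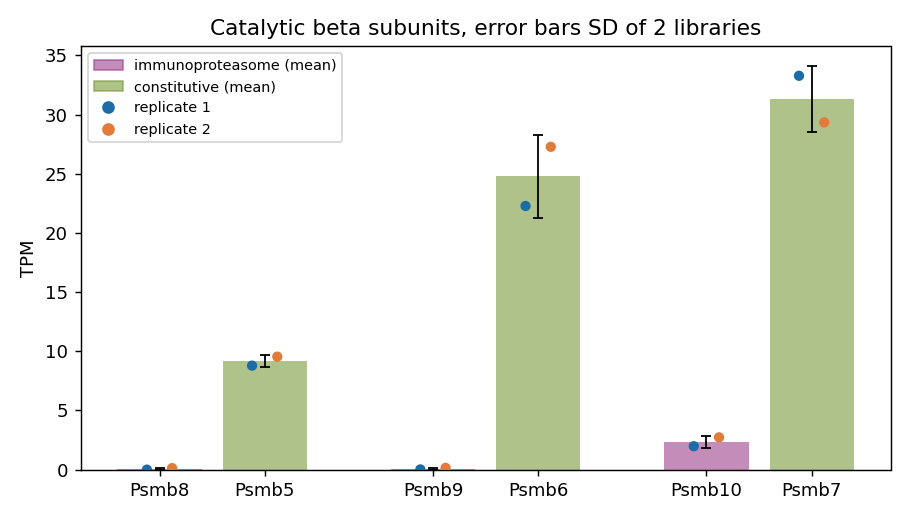
TPM of each immunoproteasome subunit beside its constitutive counterpart, as the mean of the libraries (bars), the SD (error bars) and each library (points). Psmb8 and Psmb9 lie near 0, while Psmb5 reaches 8.79 and 9.55 TPM.

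Of the interferon and MHC class I genes, 11 of 18 were detected. B2m, the light chain of MHC class I, was highest at 176.43 and 177.75 TPM. Irf1, an activator of the immunoproteasome genes, had 0.38 and 0.04 TPM, and Nlrc5, an activator of MHC class I genes, had 0 and 0.01 TPM. Irf8, Tap2, H2-K1, Isg15 and Ifit1 were also not detected.

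The activators differed widely in level. Psme1, the PA28 alpha subunit, had 208.67 and 194.20 TPM, the highest of the 50 genes and 59.8% ± 1.16 of activator TPM (SD, n = 2). Psme2, its PA28 beta partner, had 29.60 and 21.79 TPM, so Psme1 exceeded it 7.05-fold and 8.91-fold. Psme3, the nuclear PA28 gamma, had 82.27 and 76.61 TPM. On protein-coding transcripts alone Psme1 had 73.24 and 80.53 TPM, overlapping Psme3 at 76.42 and 72.60 TPM, and held 41.2% ± 2.47 of activator TPM (SD, n = 2). There Psme1 exceeded Psme2 6.79-fold and 7.38-fold. Psme4, the PA200 activator, had 32.92 and 27.03 TPM. Psme2b, which is 99.4% identical to Psme2 over 794 aligned bases, had 0.49 and 0.86 TPM, under the threshold, and reads of the pair can be split between them. Psmf1, the PI31 regulator, had 14.25 and 10.37 TPM.

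The 7 assembly chaperones ranged from 1.16 TPM (Psmg4) to 29.6 TPM (Psmd5) in mean level. Psmg2 had 23.26 and 22.59 TPM and Psmg1, its partner, 8.83 and 11.08 TPM. Psmg3 had 2.63 and 1.95 TPM and Psmg4, its partner, 1.05 and 1.26 TPM. Of the chaperones of 19S assembly, Psmd5 stood at 30.40 and 28.77 TPM, against 3.45 and 4.15 TPM for Psmd10 and 2.94 and 3.78 TPM for Psmd9. Psmc3ip had 3.03 and 3.45 TPM.

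All 18 measured partners without a Psm symbol were detected, with a median mean level of 21.6 TPM, and Paaf1 was not matched. Rad23b, a shuttle that carries ubiquitinated proteins, was highest at 65.28 and 65.75 TPM, and the ligase Ube3c lowest at 6.79 and 7.08 TPM. Of 14 listed genes of NRF1, related factors and their partners and regulators, 11 were detected. Nfe2l1, which encodes NRF1, had 13.27 and 10.01 TPM, its relative Nfe2, an erythroid factor, was highest at 77.57 and 82.98 TPM, and Nfe2l3 and Ddi1 were at 0. Maff, a small partner protein, had 0.65 and 0.86 TPM. All 9 ubiquitin and VCP genes were detected, the activating enzyme Uba6 lowest at 9.96 and 10.18 TPM.

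A gene's TPM is the sum over its transcripts, and in several genes much of the TPM lay on short transcripts that are not typed as protein-coding. Among the 47 members with reads in both libraries, the same transcript led in both for 43. The leading transcript held under 70% of the gene's mean TPM for 16 of them. Neither count was made over all genes, so they are not read as a trait of the members. Protein-coding transcripts held a median of 88.2% of TPM over the 45 detected members, against 92.3% over all detected nuclear protein-coding genes, and under 50% of it for 7 members (15.6%), against 15.1%. Psme1 was led by Psme1-209, a nonsense-mediated decay transcript of 439 bases with 46.1% and 39.7% of its TPM. On protein-coding transcripts alone its range also overlapped that of Psma1, at 78.01 and 71.16 TPM. Psmb4, a constitutive beta subunit, was led on TPM by the retained-intron transcript Psmb4-202 and had 16.94 and 14.59 TPM on protein-coding transcripts, against 43.03 and 51.23 TPM on all. In expected counts Psmb4-202 held 44.2% and 53.9% of the gene, and the protein-coding Psmb4-201 held 55.8% and 44.9%. Psma3 had 14.62 and 33.15 TPM on protein-coding transcripts, which made it the lowest alpha subunit by mean. Psme2 had 10.79 and 10.91 TPM there, and its leading transcript was not the same in both libraries. Psme2-203, its leader in replicate 1, is a retained-intron transcript of 185 bases, while the labels give an RNA size range above 200. It held 45.6% and 26.1% of the TPM of Psme2 but 8.05% and 3.52% of its expected counts, so the Psme2 level on all transcripts rests partly on few counts. The leading transcript of Psmd13, of 361 bases, has no name or type in GENCODE M21 and held 11.46 and 7.75 TPM. On transcripts typed as protein-coding Psmd13 had 17.37 and 13.26 TPM and was the lowest non-ATPase subunit. That place, and its place among the 7 members under 50%, depend on leaving this untyped transcript out. Psmc3ip was led by the retained-intron transcript Psmc3ip-202.

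**Figure D3:**
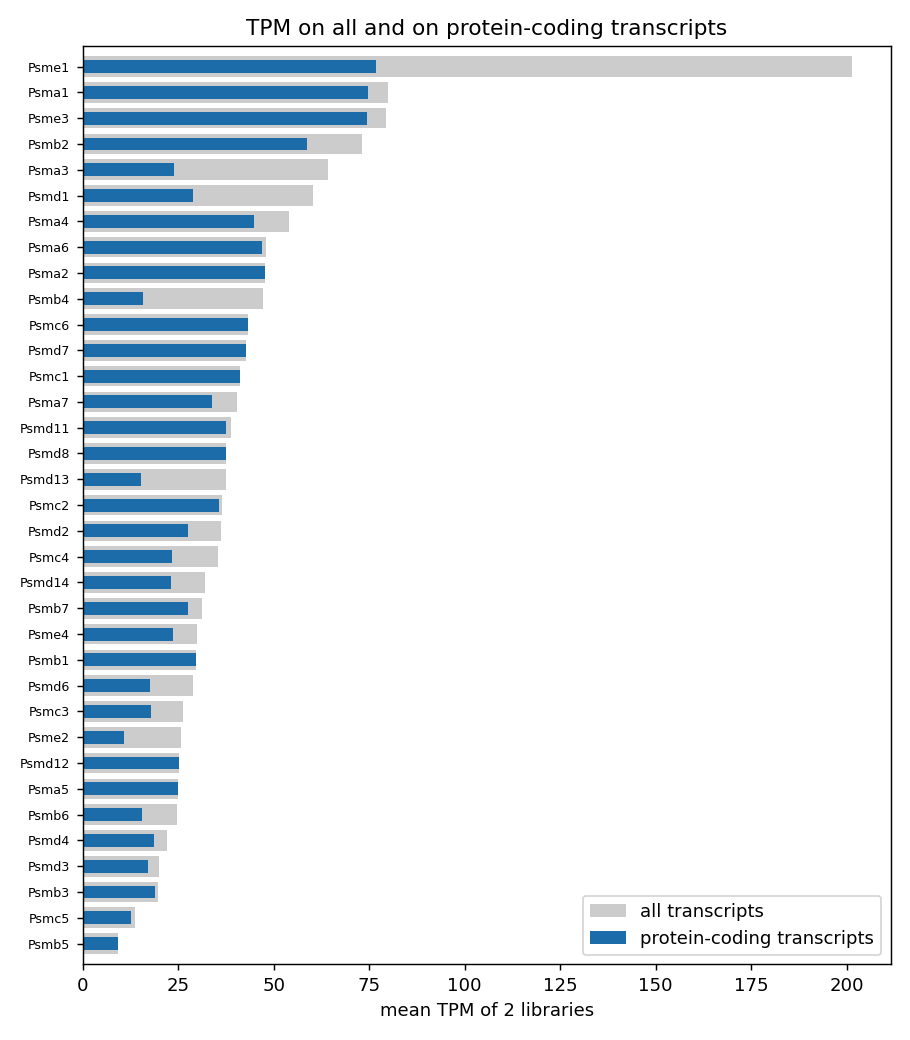
Mean TPM of the 31 constitutive subunits and the detected activators on all transcripts (grey) and on protein-coding transcripts (blue), ordered by the first. Psme1 has 76.9 TPM on protein-coding transcripts and 201 TPM on all, while Psmb5 keeps 9.17 TPM on both.

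The leading transcript also held under 70% for Psmb6, Psmc3, Psmc4, Psmd1, Psmd4, Psmd5, Psmd6, Psmd10, Psmf1 and Psmg3, and it differed between the libraries for Psma3, Psme2, Psmf1 and Psmg3. Psmc3-202 held 73.6% of the TPM of Psmc3 in replicate 1 and 36.0% in replicate 2.

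**Figure D4:**
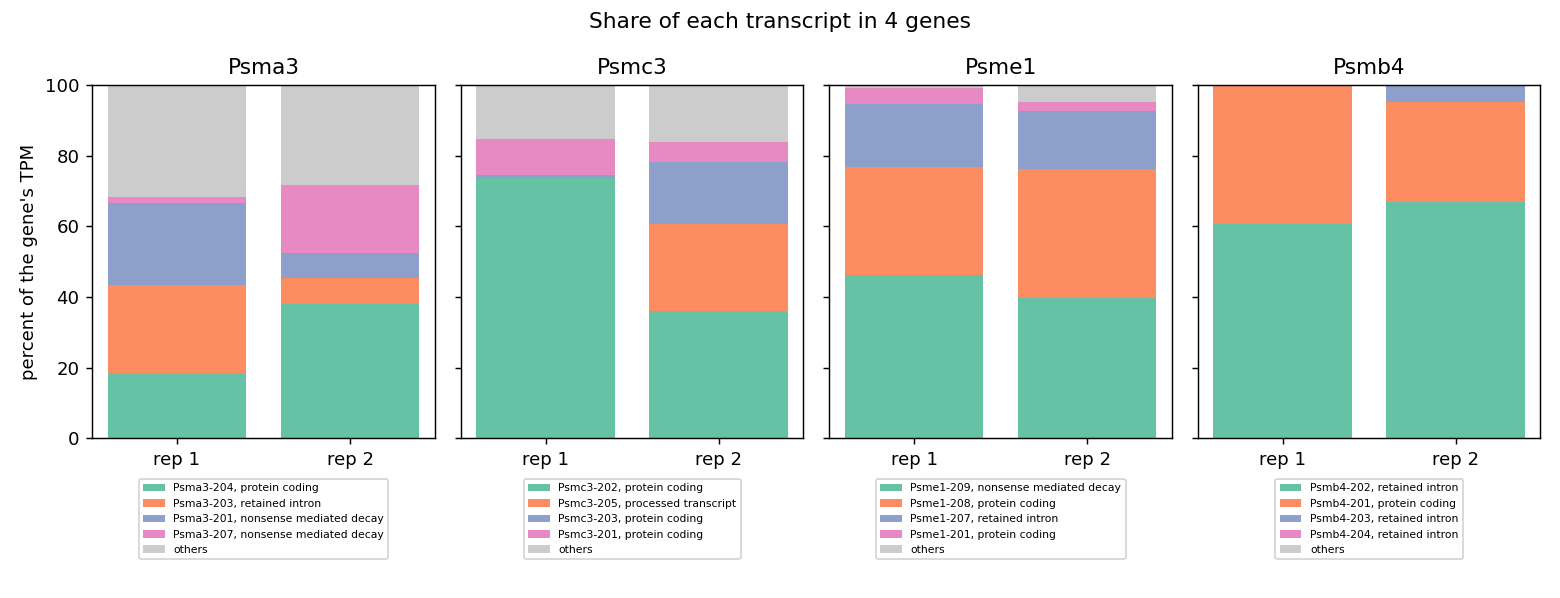
Percent of each gene's TPM on its 4 leading transcripts and on the others (grey) in each library for Psma3, Psmc3, Psme1 and Psmb4. Psmc3-202 holds 73.6% of Psmc3 in replicate 1 and 36.0% in replicate 2.

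The libraries were compared as replicate 2 over replicate 1, on log2 of TPM + 0.1. Of the 45 members with a mean of 1 TPM or more, 9 had a log2 ratio of 0.32 or more either way (20%), against 23.7% of 8808 nuclear protein-coding genes with such a mean, and the share among the members is near that background. Of these 9, 5 were higher in replicate 2 (Psma3, Psmb10, Psmc3, Psmd9 and Psmg1) and 4 lower (Psmd13, Psme2, Psmf1 and Psmg3), and 0 were 2-fold apart on TPM. On expected counts scaled by TMM, 4 passed 0.32, namely Psmb10, Psmc3, Psmd9 and Psmg3, and there Psmg3 was farther apart at -0.75 than Psmc3 at 0.44. The share of all genes was not computed on scaled counts, and the 23.7% is on TPM. Psmc3, an ATPase, was farthest apart on TPM, with 34.72 TPM in replicate 2 and 18.07 TPM in replicate 1, a log2 ratio of 0.94. It had 1109 and 845 counts in replicates 2 and 1, and effective lengths of 1019 and 1418 bases. Psma3 had a log2 ratio of 0.41 on TPM and 0.07 on counts, with effective lengths of 829 bases in replicate 2 and 1031 bases in replicate 1. The part of transcript assignment in these gaps was not tested. On protein-coding transcripts alone the log2 ratio was 1.18 for Psma3, past 2-fold, 0.42 for Psmc3, -0.82 for Psmf1 and 0.02 for Psme2. On all transcripts Psmf1 had -0.45 and Psme2 -0.44.

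**Figure D5:**
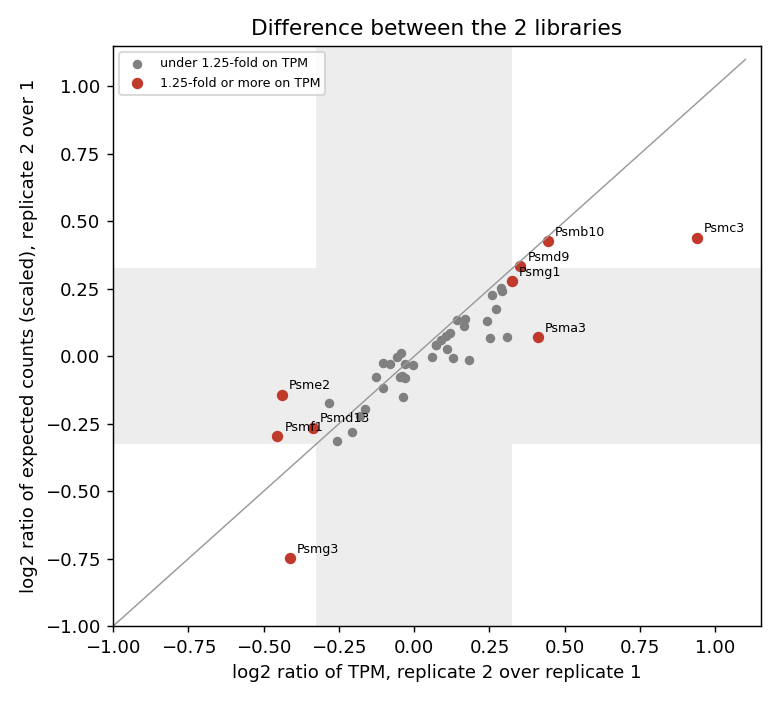
Log2 ratio of replicate 2 over replicate 1 on TPM (x axis) and on scaled expected counts (y axis) for the 45 members with a mean of 1 TPM or more, with grey bands for under 0.32 and a line for equal ratios. Psmc3 reaches 0.94 on TPM and 0.44 on counts.

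Some levels may include reads of other genes. Reads were shared with another gene, by a posterior SD above 0, for 12 of the 50 members. Among detected genes these were 11 of 45 members (24.4%), against 15.9% of nuclear protein-coding genes. Psma3 had the widest SD of the members, 26.9 and 25.2 counts. Psma4, an alpha subunit, has a processed pseudogene, Gm6542, 96.8% identical over 783 bases, which was given 118.81 and 69.90 counts. At least 50 exon bases overlap those of another gene for 12 members, on the same strand for Psmb5, Psmd1 and Psmg3. The share of all genes with such an overlap was not computed, so the count is not read as a trait of the members. Whether counting used the strand is not given in the sources used here. Psmb7, Psmb9 and Psmc3 overlap Nek6, Tap1 and Slc39a13 on the opposite strand. The posterior SD of these members was 0 in both libraries, so by this measure they shared no reads.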

How the data were processed

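Total RNA of 2 biological replicates was analysed, labelled with a size range above 200 and 1 ng of starting RNA. The deposited gene and transcript tables give expected counts, TPM, posterior means, TPM interval bounds (a signal on the TPM scale, whose level is not stated) and each transcript's percent of its gene's TPM, all made by the authors on mm10. No aligner or quantifier version was given in the sources used here. Ensembl IDs without version were named from GENCODE M21. Members and gene lists were chosen with earlier results of these data known. The 6 promoter motifs, the windows printed, the checks of copies and overlaps and the protein-coding-transcript TPM were chosen after the values were seen, and every motif searched is reported.

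A gene was detected at 1 TPM in both libraries. Ratios used a pseudocount of 0.1. With 1 group no test was run, and values are the mean ± SD of the libraries. Named are the extremes of each subgroup, the catalytic beta, tissue-restricted, activator, regulator and chaperone genes, members undetected or past a log2 ratio of 0.32 between libraries, and those whose leading transcript is under 70% or differs. Psmd4, Psmd7, Psmd14 and Psma4 were named after their values were seen, and some genes of the lists are not reported here. Expected counts, rounded, were scaled by TMM (edgeR 4.0.16) and by DESeq2 1.42.0 size factors over nuclear protein-coding genes. Only ratios scaled by TMM were tested on simulated data, for well-counted genes. As many genes were raised as lowered there, with counting noise alone, so unbalanced changes and variation between cultures were not covered. Copies were sought with BLAST+ 2.17.0. Python 3.11.15 and R 4.3.3 were used. Alternatives were other thresholds, pseudocounts, denominators, summaries, posterior means, counts, and each library alone.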

Additional observations from a re-analysis of the deposited data

Results flagged for a closer look

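A pseudogene outside the members, Psmb7-ps2, had 3.66 expected counts in replicate 2, above the 3 counts used as the limit for a count of 0, and 0.19 in replicate 1. Of pseudogenes with a symbol of this form, Psmb5-ps, Psmb6-ps and Psmb6-ps2 were at 0 counts in both libraries. Pseudogenes with other symbols also held counts, such as Gm4950, a copy of Psmb3, with 1.01 in replicate 1 and 5.28 in replicate 2.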

How the results depend on the processing

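The count of detected members ranged from 39 at a threshold of 5 TPM to 46 with TPM taken over nuclear protein-coding genes, within 1.5 times of 45 under each alternative run. The proteasome share of nuclear protein-coding TPM, 0.702%, was 0.697% with posterior mean TPM, 0.450% in expected counts and 0.160% with every listed feature as denominator. It was 0.529% with only the members limited to protein-coding transcripts and the denominator unchanged. In expected counts, where length is uncorrected, the alpha over ATPase ratio was 0.912, on the other side of 1 from its 1.41, the beta over alpha ratio was 0.618, the spread of subunits 0.866 and the immunoproteasome share 5.15%. With means in place of medians, the beta over alpha ratio was 0.653 and the non-ATPase over ATPase ratio 1.07. On protein-coding transcripts, an alternative chosen after seeing the data, the beta over alpha ratio was 0.425 and the spread 0.715, and with a pseudocount of 1 the spread was 0.661. The count of members past a log2 ratio of 0.32 was 4 on expected counts with TMM, 4 with DESeq2 size factors, and 1 at a fold of 1.5, against 9, and Psme2 changed sign on protein-coding transcripts, at 0.016. The cause of these shifts was not tested. For the count of members past 0.32, the share of all genes was computed for the main setting only.

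With 1 library left out, the alpha over ATPase ratio ranged from 1.27 to 1.54, the beta over alpha ratio from 0.570 to 0.607, the non-ATPase over ATPase ratio from 0.870 to 1.02, the spread from 0.672 to 0.701, the immunoproteasome share from 3.01% to 4.35% and the proteasome share from 0.700% to 0.703%. The count of members apart needs both libraries and has no such value. No paired analysis was possible because the series has 1 group. Depth limits Psmb8, Psmb9 and Psmg4, which had 16 counts or fewer in each library.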
